A study of Mus musculus with 7 samples.

Results

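The genes described here are 49 genes of DNA replication and mitosis, chosen by name: the factors that license and unwind replication origins, the enzymes that supply nucleotides and copy DNA, the cyclins and transcription factors that drive the cycle, and the kinases, kinetochore proteins and spindle motors of mitosis. A probe was matched through its accession for 48 of the 49. Mki67, the antigen recognised by Ki-67 antibodies, had no matched probe and is not analysed here. Of the 48, 34 could be tested among 16938 items, an item being a named gene or an unnamed transcript, 10 were too dim in the prostate samples and 4 had too few values once outlier spots were left out. The filter could be passed through PB-NICD arrays alone, and 1 member, Mcm2, passed it that way.

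RNA of the mouse prostate (strain C57Bl/6) was set against a universal mouse reference RNA on 7 two-colour arrays. The 3 PB-NICD samples came from ARR2PB-Cre;ROSA(N1IC) mice, in which Cre under the prostate promoter ARR2PB switches on the Notch1 intracellular domain and which, per the labels, form lesions of prostatic intraepithelial neoplasia. The 4 controls were ROSA(N1IC) mice that the labels call wild-type for the domain, so ROSA(N1IC) is named for both groups and the Cre for PB-NICD alone. ARR2PB is active in the prostate epithelium, whereas the RNA came from the prostate as a whole, so fewer cells of a type and less RNA per cell cannot be told apart. The labels give no ages and do not say that the samples were separate mice, so p-values measure only the spread between these samples. Slide 1 carried PB-NICD 1 and controls 1 and 2, and slide 2 carried PB-NICD 2 and 3 and controls 3 and 4.

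In a dividing cell the MCM2-7 helicase is loaded onto origins in G1 with the help of Cdc6 and Cdt1 and is then activated by Cdc45 and the GINS complex. Many of these S-phase genes are E2F targets, while the mitotic genes are switched on later by the MuvB complex with B-Myb and Foxm1, often through a CHR element and CCAAT boxes. The adult prostate epithelium divides slowly, and transcripts of both groups are used as a gauge of how many cells of a tissue are cycling.

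The labels were checked first. Notch1, part of which the transgene encodes, read 2.63 and 2.74 in PB-NICD 2 and 3, against 0.05, 0.30, 0.84 and 0.67 in controls 1 to 4, on the scale used throughout, the log2 ratio of sample over reference. The change was 2.22 ± 0.21 (SE; limma adjusted p = 0.000267). The Notch1 spot of PB-NICD 1 was left out as an outlier and read 2.47 when kept; where the probe lies in the transcript is not given. Heyl, a direct Notch target, read 2.75, 2.79 and 2.60 in PB-NICD 1 to 3, against -0.23, -0.14, -0.22 and -0.03 in controls 1 to 4. Hes1, another Notch target, rose by 1.37 (limma adjusted p = 0.000252). All 3 PB-NICD arrays therefore matched their label, and pairs of them correlated across items at r = 0.945 to 0.955. PB-NICD 1 is nevertheless given by itself below, since it was the only PB-NICD sample on slide 1.

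No member passed the test between PB-NICD and control prostates. With Benjamini-Hochberg adjustment over all items, limma called 0 of the 34 tested members higher and 0 lower, against 8.58% of all items called in either direction. At an unadjusted p below 0.05 there were 4 members, Top2a, Mcm6, Rrm2 and Tpx2, against 21.7% of all items. Changes ran from -0.63 to 0.76 on the log2 scale, 15 positive and 19 negative, with a median of -0.02 over the members and -0.02 over all items. The lowest adjusted p was 0.0748, for Top2a. The 95% interval of the change lay within 1 log2 unit on either side of 0 for 32 of the 34 members, and within 0.5 for 20.

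**Figure D1:**
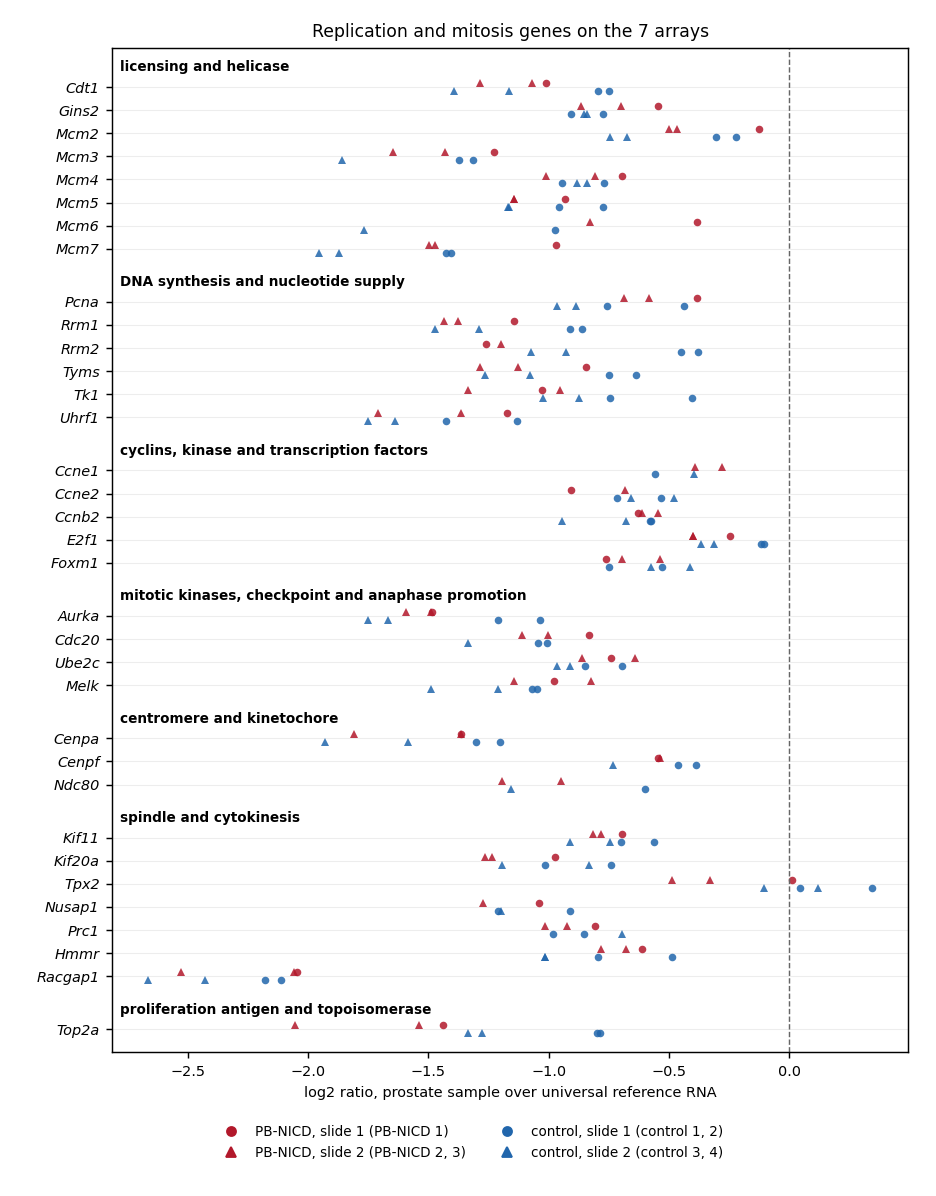
Log2 ratio of prostate sample over universal reference RNA (x axis) for the 34 tested genes (rows, by role), 1 point per array, PB-NICD in red above control in blue, circles for slide 1 and triangles for slide 2. Only Top2a, at the bottom, has all 3 PB-NICD points to the left of its 4 control points among the genes with values on all 7 arrays.

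**Figure D2:**
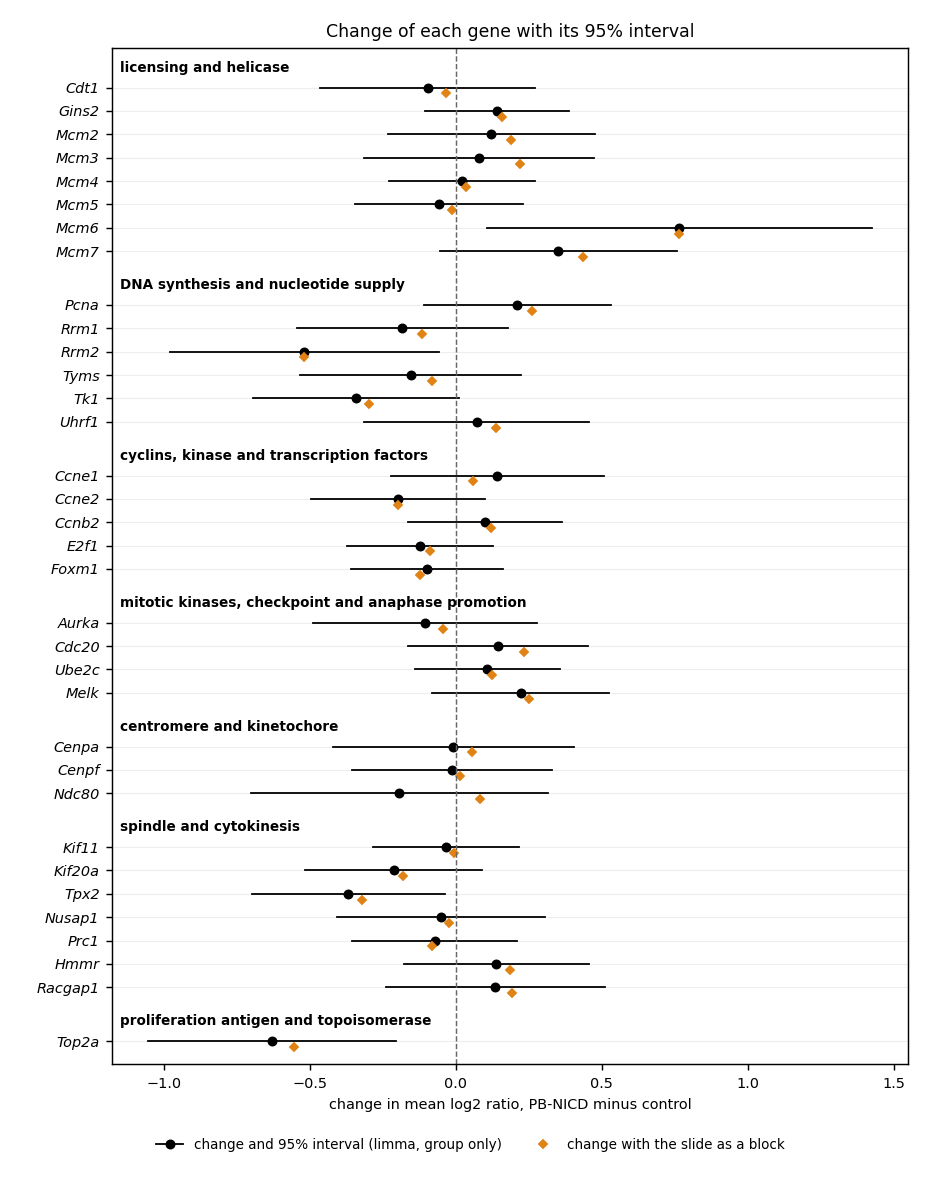
Change in mean log2 ratio, PB-NICD minus control (x axis), for the same genes, as black points with bars for the 95% interval of the limma fit and orange diamonds for the change with the slide as a block. The changes lie between -0.63 (Top2a) and 0.76 (Mcm6), and 32 of the 34 bars stay within 1 log2 unit of 0.

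Relative to the reference RNA these genes read lower in the prostate than most items did. The mean log2 ratio of PB-NICD samples was below 0 for 34 of 34 members, and that of control samples for 33 of 34. Over the members the control means ran from -2.35 (Racgap1) to 0.10 (Tpx2), with a median of -0.87, against a median of 0.05 for all items. The median spot signal of the tested members in the sample channel was 152, 199.8 and 210.5 in PB-NICD 1 to 3, and 90.2, 97, 141 and 126 in controls 1 to 4, over a local background of 52.8 to 55.2. All items tested had 156, 220 and 216 in PB-NICD 1 to 3, and 101, 104, 164 and 155 in controls 1 to 4. On each array the tested members thus had a lower median than all items tested in the sample channel. Both sets had passed the same filter on sample brightness. In the reference the tested members were brighter. Their median signal there was at least 2169.5 on each array, and that of all items tested at most 1058.

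More members were detected in the PB-NICD samples. The sample channel was well above background for 38, 40 and 45 of the 48 members in PB-NICD 1 to 3, against 34, 34, 36 and 37 in controls 1 to 4. The share of all probes above background also differed by array and slide, at 53.2%, 60.9% and 66.8% in PB-NICD 1 to 3, and 45.3%, 44.8%, 58.8% and 60.7% in controls 1 to 4. Each gene was counted on its brightest probe. Among the 10 members too dim to test, 9 of 30 readings in PB-NICD samples and 0 of 40 in control samples were well above background. These 10 were set apart by the same flag, which they met on fewer than 3 arrays. The same count over all other dim probes was not made, so it is not read as particular to the members. Cdk1, the kinase that starts mitosis, was above background on 2 PB-NICD arrays and 0 control arrays, and its cyclin partner Ccnb1 on 1 PB-NICD array and 0 control arrays. Kif23, a cytokinesis motor, was detected on 2 PB-NICD arrays, and Cdc45, Bub1b and Nuf2 on 1 each. Ckap2, a spindle protein, was detected on 1 PB-NICD array with its brightest probe and on 2 with its other probe. Cdc6, Aurkb and Bub1 were above background on 0 of 7 arrays with any probe. How far overall brightness accounts for these detections was not tested.

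**Figure D3:**
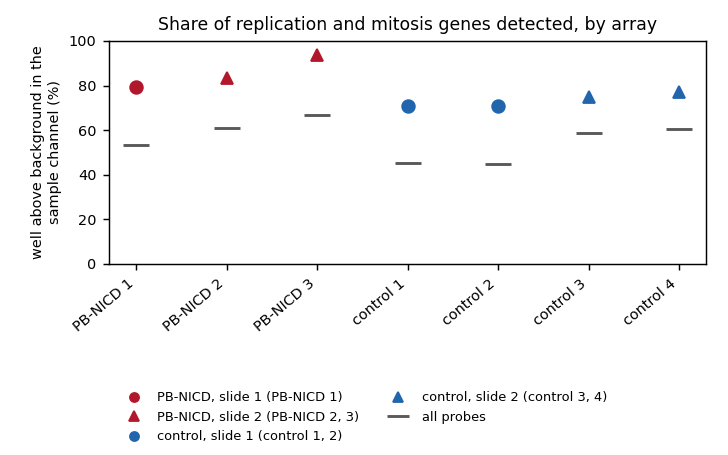
Share of the 48 matched genes (coloured points) and of all probes (grey bars) well above background in the sample channel (y axis, percent), for each array (x axis), PB-NICD left of control, circles for slide 1 and triangles for slide 2. The 3 PB-NICD arrays lie at 79.2% to 93.8% of the genes and the 4 control arrays at 70.8% to 77.1%.

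Among the licensing and helicase genes, 8 of 10 were tested, 0 passed, and the changes were positive for 6 and negative for 2, with a median of 0.10. Mcm6, a subunit of the MCM2-7 helicase, had the highest change of all members. Its log2 ratio was -0.38 and -0.83 in PB-NICD 1 and 2, against -0.98 and -1.77 in controls 2 and 4, its spots on the 3 other arrays being outliers. The 2 groups did not overlap in these 4 values, and the change was 0.76 ± 0.28 (SE; limma adjusted p = 0.165). The size rested on single control values: it was 0.37 without control 4, on control 2 alone, and 1.16 without control 2, on control 4 alone. With the outlier spots kept Mcm6 read -0.38, -0.83 and -0.76 in PB-NICD 1 to 3, against -1.67, -0.98, -1.75 and -1.77 in controls 1 to 4. These groups did not overlap, and the change was 0.88 and passed (limma adjusted p = 0.0203). Mcm7, another subunit of the same ring, read -0.97, -1.47 and -1.50 in PB-NICD 1 to 3, against -1.40, -1.43, -1.95 and -1.87 in controls 1 to 4. On each slide its PB-NICD values lay above both controls, but across slides the groups overlapped, and the change was 0.35 ± 0.18 (SE; limma adjusted p = 0.308). With the slide as a block both passed, Mcm6 with a change of 0.76 (adjusted p = 0.0193, on 1 residual degree of freedom of its own) and Mcm7 with 0.44 (adjusted p = 0.0149). In that fit 3 of 34 members passed, the third being Top2a, against 12.1% of all items.

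The start regions of these 3 genes are shown because they are the members that passed with the slide as a block. They are the 250 bases before and 50 bases after the transcript start, from RefSeq on GRCm38.p6, read 5′ to 3′ along the gene, all on the minus strand: chr1:128359656-128359955 for Mcm6, chr5:138171834-138172133 for Mcm7 and chr11:99024140-99024439 for Top2a. Capitals mark the E2F word TTCCCGC and its variants with TTCGCGC, then with TTGCCGC, then with TTGGCGC, the CHR word TTTGAA and its variant with TTCGAA, and the word CCAAT, on either strand, which may overlap.
Mcm6: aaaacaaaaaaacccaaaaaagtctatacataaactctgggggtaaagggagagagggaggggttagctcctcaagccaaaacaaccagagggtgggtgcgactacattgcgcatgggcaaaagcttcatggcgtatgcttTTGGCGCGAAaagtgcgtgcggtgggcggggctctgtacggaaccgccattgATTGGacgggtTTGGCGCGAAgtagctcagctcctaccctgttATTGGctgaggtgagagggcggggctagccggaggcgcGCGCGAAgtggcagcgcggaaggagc
Mcm7: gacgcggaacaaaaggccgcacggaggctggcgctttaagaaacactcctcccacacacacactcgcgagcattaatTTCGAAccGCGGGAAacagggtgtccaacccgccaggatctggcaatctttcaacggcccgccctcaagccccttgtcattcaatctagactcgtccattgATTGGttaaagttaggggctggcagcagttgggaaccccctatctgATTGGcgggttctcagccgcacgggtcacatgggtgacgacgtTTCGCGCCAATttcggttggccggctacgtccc
Top2a: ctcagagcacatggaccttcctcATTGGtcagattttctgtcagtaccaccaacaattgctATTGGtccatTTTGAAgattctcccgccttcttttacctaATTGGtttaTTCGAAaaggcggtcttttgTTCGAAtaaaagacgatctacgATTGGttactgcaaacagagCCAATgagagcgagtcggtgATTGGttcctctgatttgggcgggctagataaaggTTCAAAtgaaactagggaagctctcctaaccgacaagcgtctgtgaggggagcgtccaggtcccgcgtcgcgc
The Mcm6 window held 5 E2F words, some of them overlapping, 0 CHR words and 2 CCAAT words. The Mcm7 window held 3 E2F words, 1 CHR word and 3 CCAAT words, and the Top2a window 0 E2F words, 4 CHR words and 6 CCAAT words. A window was found for 41 of the 49 members. The members were counted with 1 window per gene, whereas the windows of the whole table were not limited to 1 per gene. An E2F word was present in 31.7% of the members' windows against 9.57% of the 32851 windows in the table, a CHR word in 53.7% against 19.2%, and CCAAT in 73.2% against 37.4%. Tested members with an E2F word had a median change of 0.07 (9 genes) and those without one of -0.01 (19 genes). For the CHR word the medians were 0.05 with it (14 genes) and -0.05 without it (14 genes), and for CCAAT 0.08 with it (20 genes) and -0.11 without it (8 genes). These are descriptions of letters in a window and not of binding.

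The other tested subunits of the helicase had smaller changes. Mcm2 read -0.13, -0.47 and -0.50 in PB-NICD 1 to 3, against -0.31, -0.22, -0.67 and -0.74 in controls 1 to 4, with a change of 0.12 ± 0.16 (SE; limma adjusted p = 0.724). It was well above background on 3 of 3 PB-NICD arrays and 0 of 4 control arrays. Since it passed the filter through the PB-NICD arrays alone, nothing is read from its being brighter there. Mcm3, Mcm4 and Mcm5 had changes of 0.08, 0.02 and -0.06, and the GINS subunit Gins2 one of 0.14. Cdt1, the loading factor, had a change of -0.10. Each of these had an adjusted p of 0.527 or more.

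For DNA synthesis and nucleotide supply all 6 members were tested, 0 passed, and 4 of the 6 changes were negative, with a median of -0.17. Rrm2, the regulated subunit of ribonucleotide reductase, read -1.26 and -1.20 in PB-NICD 1 and 3, against -0.45, -0.38, -1.08 and -0.93 in controls 1 to 4. Both PB-NICD values lay below all 4 control values, and the change was -0.52 ± 0.20 (SE; limma adjusted p = 0.172). Slide 1 holds PB-NICD 1 as its only PB-NICD sample, so that a fit within it takes its spread from the 2 controls and assumes that the lone sample varies like them. In that fit Rrm2 had a change of -0.84 (limma adjusted p = 0.0242), the 1 of 32 members past the threshold, against 5.48% of items. Within slide 2 its change was -0.20 (limma adjusted p = 0.683), and 0 of 34 members passed, against 5.28% of items. The difference between the slides was not tested.

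Tk1, the thymidine kinase of the salvage pathway, read -1.03, -1.33 and -0.95 in PB-NICD 1 to 3, against -0.75, -0.41, -1.02 and -0.87 in controls 1 to 4. The groups overlapped, with a change of -0.34 ± 0.16 (SE; limma adjusted p = 0.247). The large reductase subunit Rrm1 had a change of -0.18, and Tyms, which makes thymidylate, one of -0.15. Pcna, the sliding clamp of the replicative polymerases, read -0.38, -0.69 and -0.58 in PB-NICD 1 to 3, against -0.76, -0.44, -0.89 and -0.96 in controls 1 to 4. Its change was 0.21 ± 0.14 (SE; limma adjusted p = 0.454), and on each slide its PB-NICD values lay above both controls. Its probe stood at 10 spots per array, which differed with an SD of 0.10 to 0.16, so that the gap between controls 1 and 2 was larger than the spread between spots. Uhrf1, which guides maintenance of DNA methylation behind the fork, had a change of 0.07; of its 2 tested probes the other had -0.10.

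Among the cyclins, kinase and transcription factors 5 of 8 were tested, 0 passed, and the median change was -0.10. E2f1, the activator of S-phase genes, read -0.25, -0.40 and -0.40 in PB-NICD 1 to 3, against -0.12, -0.11, -0.37 and -0.31 in controls 1 to 4. Within each slide the PB-NICD values lay below both controls, but the differences were within the range of the controls across slides (-0.12 ± 0.11, SE; limma adjusted p = 0.597). Foxm1, the factor that drives late mitotic genes, had a change of -0.10, and Ccnb2, a mitotic cyclin, one of 0.10. Ccne2, an S-phase cyclin, read -0.91 and -0.68 in PB-NICD 1 and 3, against -0.72, -0.53, -0.66 and -0.48 in controls 1 to 4, with a change of -0.20 (limma adjusted p = 0.443) and overlapping groups. The other tested probe of Ccne2 had a change of -0.28 (limma unadjusted p = 0.0559). Ccne1, the close relative of Ccne2, had a change of 0.14 on 2 values in each group. Ccna2, the cyclin of S and G2, lost its test to outlier spots. With those spots kept it read -1.12, -1.85 and -1.39 in PB-NICD 1 to 3, against -1.12, -0.88, -1.75 and -1.50 in controls 1 to 4, which overlapped (change -0.14, limma adjusted p = 0.782).

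In the group of mitotic kinases, checkpoint and anaphase promotion 4 of 9 members were tested, 0 passed, and the median change was 0.13. Melk, a kinase of proliferating and progenitor cells, read -0.98, -1.14 and -0.82 in PB-NICD 1 to 3, against -1.07, -1.05, -1.21 and -1.49 in controls 1 to 4. Its PB-NICD values were above both controls on each slide, with a change of 0.22 ± 0.14 (SE; limma adjusted p = 0.402). Cdc20, which activates the anaphase-promoting complex, read -0.83, -1.11 and -1.003 in PB-NICD 1 to 3, against -1.05, -1.01 and -1.33 in controls 1, 2 and 4, and these overlapped (change 0.15, limma adjusted p = 0.613). Ube2c, a ubiquitin-conjugating enzyme of that complex, had a change of 0.11. Aurka, a centrosome kinase, read -1.48, -1.49 and -1.59 in PB-NICD 1 to 3, against -1.21, -1.04, -1.75 and -1.67 in controls 1 to 4. Its values were below both controls on slide 1 and above both on slide 2, and its change was -0.11 (limma adjusted p = 0.787). Birc5 (survivin) and Plk1, both of which lost values to outlier spots, had changes of -0.03 and -0.09 with those spots kept, and limma called neither.

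Of the centromere and kinetochore genes 3 of 5 were tested and 0 passed. The centromeric histone Cenpa had a change of -0.01, with overlapping groups. Cenpf, a kinetochore protein, read -0.55 and -0.54 in PB-NICD 1 and 2, against -0.46, -0.39 and -0.73 in controls 1, 2 and 4 (change -0.01, limma adjusted p = 0.972). Ndc80, which grips microtubules, read -0.95 and -1.20 in PB-NICD 2 and 3, against -0.60 and -1.16 in controls 1 and 3, and overlapped. Its change was -0.19 (limma adjusted p = 0.680), and it was 0.08 without control 1 and -0.47 without control 3. The kinetochore motor Cenpe, with outlier spots kept, had a change of -0.14 (limma adjusted p = 0.509).

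Of the spindle and cytokinesis genes 7 of 9 were tested, 0 passed, and 5 changes were negative, with a median of -0.05. Tpx2, which activates Aurka on the spindle, read 0.01, -0.49 and -0.33 in PB-NICD 1 to 3, against 0.04, 0.34, 0.12 and -0.10 in controls 1 to 4. PB-NICD 2 and 3 lay below all 4 controls and PB-NICD 1 among them, with a change of -0.37 ± 0.15 (SE; limma adjusted p = 0.177). Kif20a, a motor of the central spindle, read -0.97, -1.27 and -1.24 in PB-NICD 1 to 3, against -0.74, -1.01, -0.83 and -1.19 in controls 1 to 4, which overlapped, with a change of -0.21 (limma adjusted p = 0.421). Kif11, Nusap1 and Prc1 had changes of -0.03, -0.05 and -0.07, and the hyaluronan receptor Hmmr and the cytokinesis protein Racgap1 each had one of 0.14.

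Top2a, the topoisomerase that untangles sister chromatids and a common marker of cycling cells, had the lowest value of all changes. It read -1.44, -2.05 and -1.54 in PB-NICD 1 to 3, against -0.79, -0.80, -1.28 and -1.34 in controls 1 to 4. All 3 PB-NICD values were below all 4 control values, which held for 1 of the 24 tested members with values on all 7 arrays. Of these 24, 0 had all PB-NICD values above, and 23.5% of items did not overlap in either direction. Nuf2, too dim to test, read -0.25, -0.46 and -0.58 in PB-NICD 1 to 3, against -0.73, -0.84, -0.68 and -0.87 in controls 1 to 4. Its PB-NICD values lay above all 4 controls, but it was well above background on only 1 array. The mean of Top2a was -1.68 ± 0.33 in PB-NICD samples (SD, n = 3) and -1.05 ± 0.30 in control samples (SD, n = 4), and the change of -0.63 ± 0.19 (SE; limma adjusted p = 0.0748) did not pass. With the slide as a block it was -0.55 and passed (adjusted p = 0.0198). The second tested probe of Top2a had a change of -0.22 (unadjusted p = 0.253), and in the sample channel alone the change was -0.18 (limma adjusted p = 0.395).

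In the control samples these genes differed by slide. For 20 of the 26 tested members with 4 control values, both slide 1 controls lay above both slide 2 controls. The share of all items was 18.5%. For 0 members they lay below, a direction not counted over all items. The median deviation of the tested members from their control mean was 0.07, -0.08 and -0.05 in PB-NICD 1 to 3, against 0.13, 0.20, -0.15 and -0.20 in controls 1 to 4. PB-NICD 1 was above both PB-NICD 2 and 3 for 22 of the 27 tested members with 3 PB-NICD values. The share of all items was not counted here, so this is not read as particular to the members. Within slide 1, PB-NICD 1 was above both controls for 10 of 31 members and below both for 14, against 34.3% and 40.7% of all items. Within slide 2, PB-NICD 2 and 3 were above both controls for 9 of 24 members and below both for 4, against 21% and 30.7% of all items. The median change of the members was 0.03 with the slide as a block, -0.06 within slide 1 and 0.07 within slide 2, the sign turning between slides. The summed sample signal of 6 seminal vesicle markers was 4391, 366 and 188.5 in PB-NICD 1 to 3, against 498, 27456.5, 75.5 and 56.5 in controls 1 to 4, higher on slide 1 in both groups; its part in the result was not tested.

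Whether the members' median differed from that of all items depended on how the arrays were processed. In the sample channel alone, background-corrected and quantile-normalized between arrays, the median deviation of the members was 0.23, 0.17 and 0.13 in PB-NICD 1 to 3, against 0.00, 0.10, 0.02 and -0.10 in controls 1 to 4, so that all 3 PB-NICD samples lay above all 4 control samples. On this scale 28 of 34 changes were positive, with a median of 0.20 for the members and 0.02 for all items. Limma's adjusted threshold was passed by 0 members, against 6.77% of all items. At an unadjusted p below 0.05 there were 9 members, and the share of all items was not counted. Within slide 1, PB-NICD 1 was above both controls for 23 of 31 members and below for 5, against 39.3% and 32.8% of all items. Within slide 2, PB-NICD 2 and 3 were above both controls for 14 of 24 members and below for 1, against 25% and 21.6% of all items. With processed signals 29 of 34 changes were positive, with a median of 0.30 for the members and 0.05 for all items. There 0 members passed, against 6.64% of all items, and 11 had an unadjusted limma p below 0.05. When the log2 ratios were only centred on each array's median, the members' median change was 0.44, but the median of all items was also 0.27, a difference of 0.17. With that centring 17 of 34 members were called higher, among them Mcm3 to Mcm7, Pcna, Cdc20 and Melk, against 25.5% of all items called higher. The authors' deposited value table, fitted the same way, called Mcm6 and Mcm7 higher and Rrm2 and Top2a lower, 4 of 34 members against 20.8% of items, with a median change of 0.02.

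**Figure D4:**
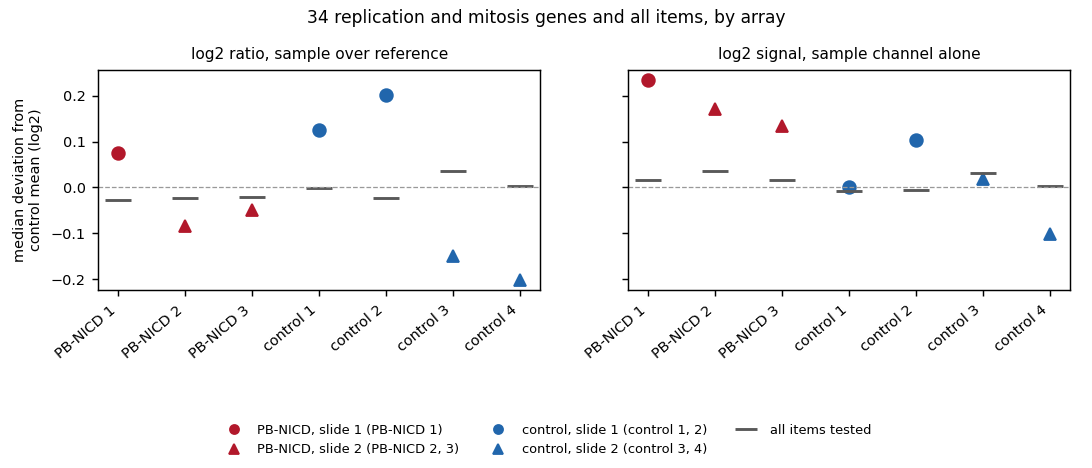
Median deviation from the control mean (y axis, log2) of the 34 tested genes (coloured points) and of all items (grey bars) on each array (x axis), for the log2 ratio (left panel) and the sample channel alone (right panel), PB-NICD left of control, circles for slide 1 and triangles for slide 2. In the left panel the controls of slide 1 (0.13 and 0.20) lie above those of slide 2 (-0.15 and -0.20), and in the right panel the PB-NICD arrays (0.13 to 0.23) lie above the control arrays.

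Other genes of the same processes had 0 calls too, against 8.58% of all items called in either direction. Of 30 tested other DNA replication genes 0 passed, the lowest p being that of Chaf1b, a subunit of the histone chaperone of the fork, with a change of 0.34 (limma adjusted p = 0.101). Of 32 other mitosis genes 0 passed, the lowest p being that of Kif2c, a microtubule-depolymerising kinesin, with a change of -0.35 (limma adjusted p = 0.187). Of 14 pocket proteins, MuvB subunits, Myb and other E2F factors 0 passed, the lowest p being that of E2f2, an activating E2F, with a change of -0.35 (limma adjusted p = 0.167). The median changes of these lists were -0.01, -0.04 and 0.02.

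Markers of several cell types differed between the groups. All 10 matched luminal markers were well above background on all 7 arrays. Of 6 basal markers 4 were called lower in PB-NICD samples (Krt5 by -1.74, limma adjusted p = 0.000127), and of 3 tested urothelial markers 1, Upk3a, was higher by 5.11 (limma adjusted p = 0.000518). Of 9 tested luminal markers Krt19 was called higher (change 1.00), and of 3 endothelial markers Emcn lower (-0.81). Of 6 smooth muscle markers Actg2 was called lower (-0.44), and all 6 changes were negative, with a median of -0.48. Lists for fibroblasts, neuroendocrine cells, seminal vesicle and red blood cells had 0 markers called. So had those for T cells, B and plasma cells and myeloid cells, which can hold dividing cells too: the median change was 0.11 over 4 T cell markers, -0.32 over 6 B and plasma cell markers, all 6 negative, and 0.09 over 4 myeloid markers. The median signal of all items was higher in the sample channel on the PB-NICD arrays of each slide, and these lists had summed sample signals of 2277 to 4829, 456 to 647 and 1119 to 1475 in PB-NICD samples, against 1363 to 3398, 215 to 460 and 356.5 to 872 in control samples. Their part in the members' values was not tested.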

How the data were processed

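Two-colour Agilent arrays of 3 PB-NICD and 4 control prostates were analysed. Scanning software was Agilent Feature Extraction 10.7.3.1, per the file headers. Intensity columns, as deposited, hold the median signal of the spot and of its surroundings without normalization. A log10 ratio of red (sample) over green (reference), also deposited, gave the alternative with processed signals. Deposited flags, a score of 0 or 1 per spot, mark outliers and spots well above background. The authors' value table is on a log2 scale by its values, centred near 0 (column medians -0.01 to 0.00); the labels used here do not state its normalization. Each column correlated with its own array at r = 0.991 to 0.997, in the direction of red over green.

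In limma 3.58.1 (R 4.3.3), normexp with an offset of 50 and loess within arrays gave log2 ratios. Spots whose local background was marked non-uniform (2 to 28 per array) were left out before normexp, a choice made after seeing the data: on PB-NICD 1 a local background as high as 47872 had moved the fitted background of the whole sample channel to -220, against -7.71 without those spots. Outlier spots were left out, spots of a probe were averaged, and the brightest tested probe stood for a gene. Tested probes had a sample channel above background, by the scanner's flag, on 3 or more arrays and 2 or more values per group. The offset draws dim ratios together, and the number of arrays limits the precision. lmFit and eBayes were fitted with group only, two-sided, with Benjamini-Hochberg adjustment over 16938 items at 0.05. The fit was tested on simulated data. Dyes were never swapped. Accessions were named through the RefSeq table of GRCm38.p6 (24375 of 41174 probes).

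The members, gene lists and tests were chosen with earlier results of these data known. The rule for named genes took those past the threshold, not overlapping between groups, with the 2 lowest p in a role, or with the 5 highest or lowest values of PB-NICD 1 relative to PB-NICD 2 and 3, plus Mki67, Top2a, Cdk1, Ccnb1, Pcna, Mcm2 and E2f1, and the lowest p of each pathway list; some of these and all other members are given by their change alone. Whole-array signals are given in the report. Alternatives covered background, scaling, filters, outlier spots, probes, slide, replicate number, each sample left out, and the authors' table.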

Additional observations from a re-analysis of the deposited data

How the results depend on the processing

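Of the 34 tested members 0 were called in either direction under the following settings, each given with the share of all items called. These were no background subtraction (9.1%), processed signals (6.64%), no filter on dim probes (45 members tested, 3.98%), a stricter filter (29 tested, 11.4%) and the mean of probes (8.06%). The same held for the slide as a random block (10.1%), within slide 2 (5.28%), the sample channel alone (6.77%) and odd-background spots kept (2.69%). Median centring called 17 higher and 0 lower, with a median change of 0.44 (0.27 over all items). Under it Cenpa (0.48), Kif11 (0.38), Mcm5 (0.42) and Prc1 (0.64) turned from negative to called higher; the cause was not tested. It also raised the share of higher calls among all called items to 93.9%, against 41.7%. Keeping outlier spots called 1 higher (Mcm6), against 9.36% of all items called in either direction. The slide as a fixed block called 2 higher and 1 lower, within slide 1 there was 1 lower, and the authors' table gave 2 higher and 2 lower. The members' median moved to 0.30 with processed signals and to 0.20 in the sample channel alone, with a positive sign in both; the cause was not tested. With each sample left out in turn, calls higher numbered 0 to 1 (Mcm6 without control 2), calls lower 0, and the median was -0.06 to 0.04. The share of all items called then ran from 5.02% (without PB-NICD 2) to 8.71% (without control 3). Without PB-NICD 1, 0 members were called and the median was -0.06. With the odd-background spots kept the median was 0.10, and the cause was not tested beyond the fitted backgrounds given with the processing.

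Over all items 1454 were called, fewer (455) when the odd-background spots were kept and without PB-NICD 2 (851), and more under median centring (4596) and in the authors' table (3516). The titles give both groups the numbers 1 to 3, and the labels do not say what a shared number means. Deviations of same-numbered samples correlated at r = 0.32, -0.24 and 0.08. These values cannot show whether such samples had a litter or day in common. PB-NICD 1 and control 1 shared slide 1, PB-NICD 3 and control 3 shared slide 2, and the samples numbered 2 lay on different slides. With the replicate number as a block 0 members were called, 1137 items were called in all, and the members' median change was -0.04; the change of Mcm6 was then 0.15. The sample channel signal limits the 10 dim members, which were left out of the main fit for it. How large a change could be detected at this brightness was not tested. The sample channel alone and the odd-background setting were added after seeing the data.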
